A study of Mus musculus with 9 samples.

Results

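The genes described here are 37 markers of the lung's own tissue: 17 of its epithelium, 15 of its endothelium and 5 of its stroma. They were picked by symbol from the 55291 genes counted in each library, and all 37 were found. The 9 libraries hold RNA of mouse cells of acute myeloid leukaemia (AML), 3 libraries of cells recovered from lungs of WT recipient mice, 3 from bone marrow (BM) and 3 from in vitro culture. Cells of every group, culture included, carry Trp53(R172H/Δ), where R172H names an amino acid change in p53. The labels call them AML Trp53(R172H/Δ) cells, and the series title names tissue-specific microenvironments in AML as the subject. How the cells were separated from lung and BM tissue, and whether libraries of a group came from separate mice or cultures, is not given in the sources used here, so the p-values measure only the spread between these libraries.

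The lung's gas-exchange surface is built of flat alveolar type I cells and of type II cells, which make surfactant, the lipid and protein film that keeps alveoli open. Conducting airways are lined by club cells, which secrete protective proteins and metabolise foreign compounds, and by ciliated cells. Under the epithelium lies a dense capillary network whose endothelial cells are joined by adherens and tight junctions, and fibroblasts and pericytes support both. Several endothelial markers are shared with blood stem and progenitor cells, which arise from endothelium in the embryo.

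Libraries held between 27485111 and 38761363 counted reads, so that 1 read was worth between 0.0258 and 0.0364 CPM, the count scaled by the total of its library. No pair of libraries within a group agreed to within sampling noise. Kit, a receptor of blood progenitors, was at 502 to 764 CPM in lung, 580 to 685 CPM in BM and 1108 to 1172 CPM in culture. Gata2, a progenitor transcription factor, was at 162 to 209 CPM in lung, 51.5 to 55.2 CPM in BM and 290 to 296 CPM in culture. Trp53 itself was at 304 to 378 CPM in lung, 311 to 352 CPM in BM and 282 to 292 CPM in culture. Ptprc, the CD45 gene of leukocytes, stayed low in all groups, at 5.82 to 9.36 CPM in lung, 1.77 to 17.9 CPM in BM and 1.27 to 1.99 CPM in culture.

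The 37 markers fell into 3 kinds by their reads. The cultured leukaemia cells themselves expressed 7 of them, at 1 CPM or more in every culture library: Calcrl, Egfl7, Dcn, Eng, Hopx, Napsa and Kdr. Another 13 were seen only in lung, with at most 3 reads summed over culture, at most 3 summed over BM, a read in every lung library and at least 10 lung reads in sum: Scgb1a1, Ptprb, Cldn5, Slc34a2, Ramp2, Cdh5, Inmt, Sftpb, Pdgfra, Sftpd, Emcn, Krt18 and Epcam. The other 17 met neither rule. Of all 55291 genes, 11250 (20.3%) met the rule for expression in culture and 255 (0.461%) the rule for lung alone. Kdr was just inside the limit for culture expression, with a lowest culture value of 1.45 CPM, and Ager just outside it, at 0.473 CPM. Sftpa1, with 4 culture reads, was just outside the limit for lung alone, and Scgb1a1, with 3 BM reads, just inside it. In bulk RNA, fewer cells of a type and less RNA per cell cannot be told apart.

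**Figure D1:**
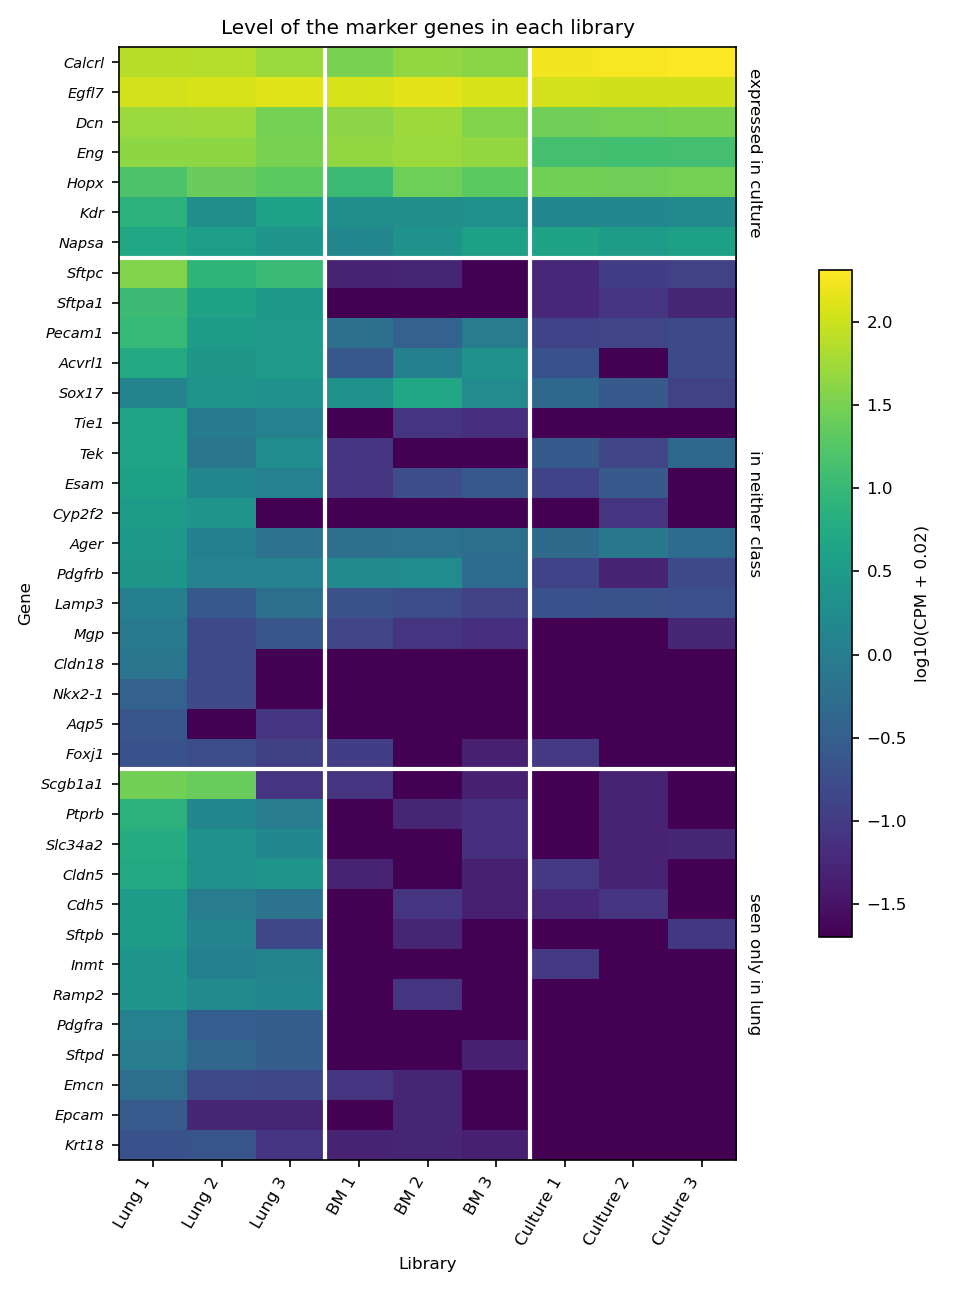
Level of each of the 37 markers (rows) in each of the 9 libraries (columns), as log10(CPM + 0.02), in 3 blocks by where the gene was detected. The 7 genes of the top block are bright in all 9 columns. The 13 genes of the bottom block are brighter in lung replicate 1 than in any BM or culture column. Scgb1a1 and Krt18 (2 reads each) are dark in lung replicate 3, and Epcam (1 read each) in lung replicates 2 and 3.

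The 3 comparisons share libraries (each group enters 2 of them) and were contrasts in 1 edgeR quasi-likelihood fit, with Benjamini-Hochberg adjustment over the 15066 genes that passed a filter on low counts and a threshold of 0.05. Only 23 of the 37 markers passed that filter, and a marker that passed it through its lung reads alone had to differ. The counts that follow therefore describe the tested markers and support nothing further. The same holds for the single p-values of such markers. In lung against BM, 15 of the 23 were higher and 0 lower, against 14.2% of all tested genes called higher and 11.1% called lower. In lung against culture, 19 were higher and 1 lower, against 27.9% and 27.0% of all tested genes. In BM against culture, 5 were higher and 2 lower, against 30.7% and 29.8% of all tested genes. Median log2 changes of the tested markers were 3.03, 4.13 and 0.17 in these comparisons, beside −0.01, 0.02 and 0.05 over all tested genes.

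Surfactant genes were detected in lung and hardly at all elsewhere. Sftpc, which encodes the hydrophobic surfactant protein C and is made by type II cells, had 1370, 253 and 344 reads in lung replicates 1 to 3, against 1, 1 and 0 reads in BM and 1, 3 and 3 reads in culture. In CPM its lung level was 35.9, 8.41 and 10.8. Groups did not overlap, and lung replicate 1 stood above the other two lung libraries. The ratio of lung to BM was 1023, with an exact 95% interval of 283 to 8451 that covers counting error only and treats amplified reads as independent molecules. Against culture the log2 change was 7.78 ± 0.84 (SE; edgeR adjusted p = 7e-05). Sftpc lies on chromosome 14 at 70520949 to 70524081 (GRCm38, minus strand).

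Sftpa1, which encodes surfactant protein A, a collectin that binds microbes, had 425, 124 and 86 reads in lung, 0 in every BM library, and 1, 2 and 1 reads in culture. All 3 lung libraries were above all others, and lung was at least 220-fold higher than BM when BM was set at 3 reads over the group. Against culture its log2 change was 6.92 ± 0.76 (edgeR adjusted p = 5.8e-05). Sftpb, the other hydrophobic surfactant protein gene, had 120, 37 and 4 reads in lung, 0, 1 and 0 reads in BM and 0, 0 and 2 reads in culture. It did not follow the other surfactant genes in lung replicate 3, where its share of Sftpb plus Sftpc reads was 1.15% (exact 95% interval 0.314 to 2.92%), against 8.05% (6.72 to 9.55%) in lung replicate 1 and 12.8% (9.14 to 17.2%) in lung replicate 2. Sftpd, the gene of the collectin surfactant protein D, had 37, 12 and 9 reads in lung, 0, 0 and 1 in BM and 0 in culture.

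The upstream sequences of Sftpa1 and Sftpb are shown because these genes moved together between groups and NKX2-1, the transcription factor that drives surfactant genes in type II cells, binds a CTCAAG core in surfactant promoters. They are the 250 bases before the RefSeq transcript start (GRCm38.p6), on the plus strand, at chr14:41131538-41131787 for Sftpa1 and chr6:72304360-72304609 for Sftpb. Capitals mark CTCAAG on either strand.
Sftpa1: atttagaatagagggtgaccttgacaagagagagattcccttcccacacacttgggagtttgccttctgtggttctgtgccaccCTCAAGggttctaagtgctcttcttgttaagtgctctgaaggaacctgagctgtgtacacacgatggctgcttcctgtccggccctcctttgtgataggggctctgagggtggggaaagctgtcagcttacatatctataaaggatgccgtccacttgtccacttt
Sftpb: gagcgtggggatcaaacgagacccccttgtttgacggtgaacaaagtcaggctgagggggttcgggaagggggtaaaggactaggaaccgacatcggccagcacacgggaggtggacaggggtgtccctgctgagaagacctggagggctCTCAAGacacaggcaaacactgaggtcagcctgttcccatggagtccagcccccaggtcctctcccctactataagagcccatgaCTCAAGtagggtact
Sftpa1 held 1 match and Sftpb 2, whereas 15.9% of 32851 RefSeq promoters of 300 bases held at least 1. Promoter entries were found for 22 of the 37 markers, 26 promoters in all. Among the 8 seen only in lung that had one, 3 genes held the core (Sftpb, Emcn and Pdgfra). Among 9 genes of the middle kind 1 did (Sftpa1), and among 5 genes expressed in culture 1 did (Hopx). The promoters of the further type II markers Slc34a2, Lamp3 and Nkx2-1 held no match.

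The transcription factor gene Nkx2-1 had 13, 4 and 0 reads in lung replicates 1 to 3 and 0 in every BM and culture library. Slc34a2, a sodium-dependent phosphate transporter of type II cells, had 228, 68 and 47 reads in lung, 0, 0 and 2 in BM and 0, 1 and 1 in culture, a ratio of lung to BM of 178 (counting interval 49 to 1479). Its lung libraries did not overlap the others. Lamp3, a lamellar body membrane protein that dendritic cells also express, had 41, 7 and 17 reads in lung, 6, 5 and 4 in BM and 5, 6 and 5 in culture. Napsa, an aspartic protease that processes surfactant protein B, was a marker that the cultured cells express. It was at 5.14, 3.56 and 2.54 CPM in lung, 1.36, 2.19 and 3.72 CPM in BM and 4.04, 3.22 and 3.84 CPM in culture. The groups overlapped, and it passed in no comparison (log2 change 0.65 ± 0.33 in lung against BM, edgeR adjusted p = 0.16). Without BM replicate 3 it passed in lung against BM (1.08, adjusted p = 0.02) and in BM against culture (−1.11, adjusted p = 0.0066).

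Of the type I markers, only Hopx had high levels and it was not higher in lung. Hopx, a homeodomain-only cofactor also expressed in blood stem cells, was at 15.6, 24.5 and 19.8 CPM in lung, 10.9, 26.8 and 19.9 CPM in BM and 28.7, 27.7 and 29.8 CPM in culture. Both tissues lay below culture in every library. The log2 change was −0.57 ± 0.27 in lung against culture (edgeR adjusted p = 0.095) and −0.66 ± 0.27 in BM against culture (adjusted p = 0.056). Both passed without BM replicate 2, without a filter on low counts and in DESeq2, and lung against culture also without BM replicate 1 and with only those 6 libraries. Without BM replicate 2 there was a change of −0.96 in BM against culture (adjusted p = 0.0056). Ager, which encodes the receptor RAGE, was at 2.73, 1.06 and 0.659 CPM in lung, 0.591, 0.636 and 0.542 CPM in BM and 0.473, 0.813 and 0.48 CPM in culture. It was higher in lung than in BM (log2 change 1.36 ± 0.46, edgeR adjusted p = 0.046), a call lost in 11 of 16 alternatives, among them each library left out other than lung replicate 3. Without lung replicate 1 the change was 0.56 (adjusted p = 0.36). Cldn18, a tight junction claudin, had 28, 4 and 0 reads in lung, and the water channel gene Aqp5 had 8, 0 and 2, with no read of either in BM or culture.

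Airway markers divided the lung libraries among themselves. Scgb1a1, which encodes the club cell secretory protein, had 1096, 720 and 2 reads in lung replicates 1 to 3, against 2, 0 and 1 in BM and 0, 1 and 0 in culture. Lung replicate 3, at 0.0628 CPM, was at the level of the BM and culture libraries, whereas lung replicates 1 and 2 were at 28.7 and 23.9 CPM. Cyp2f2, a club cell cytochrome P450, had 124, 74 and 0 reads in lung, 0 in BM and 0, 2 and 0 in culture, so it too was missing from lung replicate 3.

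Sftpc was present in that same library, so airway and alveolar markers did not move in a fixed ratio. Scgb1a1 made up 0.578% of Scgb1a1 plus Sftpc reads in lung replicate 3 (exact 95% interval 0.0701 to 2.07%), against 44.4% (42.5 to 46.4%) in lung replicate 1 and 74.0% (71.1 to 76.7%) in lung replicate 2. The 4 surfactant genes together were at 51.2, 14.2 and 13.9 CPM in lung replicates 1 to 3. Foxj1, the master regulator of motile cilia, stayed near the floor, with 7, 5 and 3 reads in lung, 3, 0 and 1 in BM and 2, 0 and 0 in culture. The general epithelial genes were low as well. Epcam, an epithelial adhesion molecule, had 10, 1 and 1 reads in lung, 0, 1 and 0 in BM and 0 in culture. Krt18, a keratin of simple epithelia, had 7, 6 and 2 reads in lung, 1 in each BM library and 0 in culture.

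**Figure D2:**
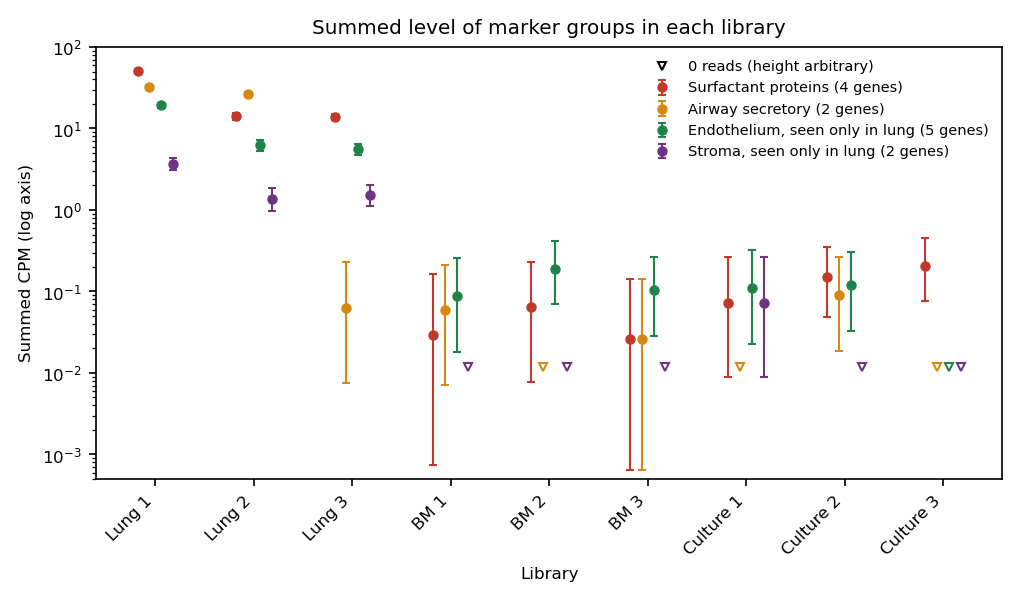
Summed CPM (log axis) of 4 groups of markers in each library, with exact 95% counting intervals. Open triangles mark libraries with 0 reads and are drawn at an arbitrary height. The surfactant sum is 51.2, 14.2 and 13.9 CPM in lung replicates 1 to 3, while the airway secretory pair (Scgb1a1 and Cyp2f2) falls to 0.0628 CPM in lung replicate 3.

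Among endothelial markers, junction genes were nearly absent from BM and culture. Cdh5, the gene of VE-cadherin, the adherens junction protein of endothelium, had 126, 29 and 21 reads in lung, 0, 2 and 1 in BM and 1, 2 and 0 in culture. Cldn5, a tight junction claudin of endothelium, had 211, 61 and 77 reads in lung, 1, 0 and 1 in BM and 2, 1 and 0 in culture, a ratio of lung to BM of 181 (counting interval 49.9 to 1504). In neither gene did lung libraries overlap the others.

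Pecam1, which encodes the adhesion molecule CD31 of endothelium, platelets and leukocytes, was at 9.73, 3.13 and 2.79 CPM in lung, 0.591, 0.35 and 0.98 CPM in BM and 0.109, 0.12 and 0.137 CPM in culture. The 3 groups did not overlap, and every contrast passed (log2 change 3.03 ± 0.51 in lung against BM, edgeR adjusted p = 0.0019, and 2.30 ± 0.69 in BM against culture, adjusted p = 0.013). The BM against culture call was lost without BM replicate 3 (1.87, adjusted p = 0.076). Esam, an immunoglobulin-like adhesion molecule, was at 3.86, 1.36 and 1.13 CPM in lung, 0.0591, 0.159 and 0.232 CPM in BM and 0.109, 0.241 and 0 CPM in culture. It was higher in lung than in BM (3.80 ± 0.71, adjusted p = 0.0032), while BM and culture overlapped.

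Receptors of the angiopoietin and VEGF pathways were less uniform. Tie1 had 168, 26 and 36 reads in lung, 0, 2 and 2 in BM and 0 in culture. Its partner Tek, the angiopoietin receptor TIE2, which haematopoietic stem cells also express, had 165, 22 and 57 reads in lung, 2, 0 and 0 in BM and 7, 4 and 12 in culture. All BM libraries were below all culture libraries and all lung libraries above them. Tek was higher in lung than in culture (log2 change 3.09 ± 0.70, edgeR adjusted p = 0.003) and lower in BM than in culture (adjusted p = 0.023), where BM had 2 reads in sum. The BM call was lost without BM replicate 2, BM replicate 3 or culture replicate 3, with adjusted p up to 0.086.

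Kdr, the main VEGF receptor, was expressed in culture. It was at 7.63, 1.96 and 3.99 CPM in lung, 1.95, 1.88 and 2.06 CPM in BM and 1.49, 1.45 and 1.61 CPM in culture. Lung replicate 2 lay within the BM range and the other two lung libraries above it. Kdr was higher in lung than in BM (log2 change 1.23 ± 0.37, edgeR adjusted p = 0.03), a call lost in 7 of 17 alternatives, among them leaving out lung replicate 1, culture replicate 1 or 2, or any BM library. Without lung replicate 1 the change was 0.63 (adjusted p = 0.17). Against culture the lung call held in every alternative run (1.54 ± 0.38, adjusted p = 0.0044; 0.023 at most). Ptprb, the endothelial tyrosine phosphatase VE-PTP, had 288, 43 and 30 reads in lung, 0, 1 and 2 in BM and 0, 1 and 0 in culture.

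The receptor Calcrl and its partner Ramp2, which together bind adrenomedullin, were both higher in lung than in BM but differed in culture, where Calcrl was highest and Ramp2 had 0 reads. Calcrl was at 75.7, 74.8 and 51.7 CPM in lung, 32.4, 46.3 and 39.9 CPM in BM and 173, 185 and 206 CPM in culture. None of the 3 groups overlapped. It was lower in BM than in culture (log2 change −2.32 ± 0.15, edgeR adjusted p = 1.6e-07), lower in lung than in culture (−1.53 ± 0.15, adjusted p = 5.2e-06) and higher in lung than in BM (0.79 ± 0.15, adjusted p = 0.0034). Ramp2 had 92, 50 and 44 reads in lung, 0, 2 and 0 in BM and 0 in culture. Ramp2 overlaps Vps25 on the same strand in GENCODE M21, so its reads may be split between these genes.

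The transforming growth factor beta family receptors Eng and Acvrl1 were higher in both tissues than in culture. Eng, which encodes the co-receptor endoglin, was at 42.6, 43.3 and 32.5 CPM in lung, 46.8, 51.6 and 46.6 CPM in BM and 13.6, 12.6 and 13.2 CPM in culture. It rose in lung against culture (log2 change 1.55 ± 0.12, edgeR adjusted p = 1.8e-07) and in BM against culture (1.82 ± 0.12, adjusted p = 3.1e-08). Lung was below BM in every library without passing the test (−0.27 ± 0.11, adjusted p = 0.087). Eng overlaps Fpgs on the other strand, and without strand the reads of such a pair cannot be told apart. Acvrl1, the receptor ALK1, was at 5.46, 2.59 and 2.79 CPM in lung, 0.236, 1.05 and 2.22 CPM in BM and 0.182, 0 and 0.137 CPM in culture. It rose in lung against culture (5.07 ± 0.91, adjusted p = 0.0011) and in BM against culture (3.41 ± 0.95, adjusted p = 0.011), and lung against BM did not pass (1.65 ± 0.67, adjusted p = 0.1) except without BM replicate 3 (2.51, adjusted p = 0.013), without a filter on low counts or in DESeq2.

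**Figure D3:**
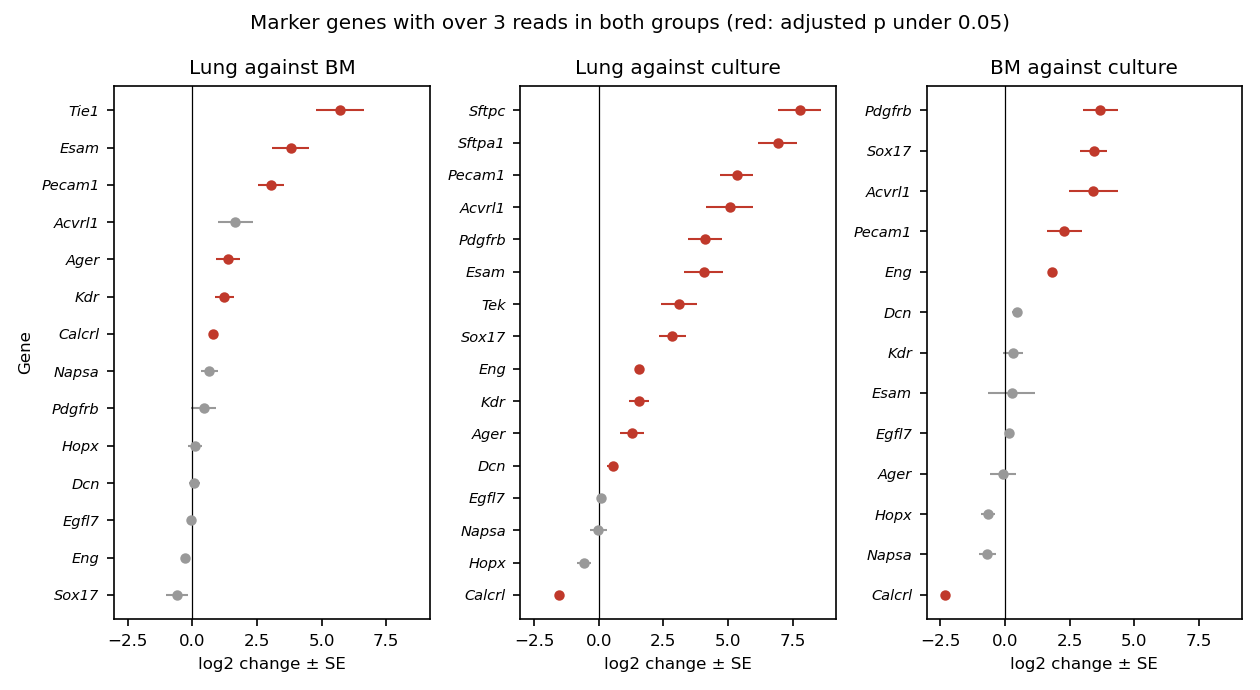
Log2 change with its SE in the 3 comparisons, for tested markers with more than 3 reads in each group of the pair, red where the adjusted p was under 0.05. Eng, Sox17 and Pdgfrb lie at 1.82, 3.43 and 3.70 in BM against culture and at −0.27, −0.59 and 0.43 in lung against BM, while Calcrl is at −2.32 and 0.79.

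Sox17, a transcription factor of arterial endothelium and fetal blood stem cells, was the endothelial marker with the highest BM values relative to lung. It was at 1.29, 2.33 and 2.20 CPM in lung, 2.19, 4.99 and 1.70 CPM in BM and 0.437, 0.241 and 0.103 CPM in culture. Tissue libraries were all above culture and overlapped each other. The log2 change was 2.85 ± 0.53 in lung against culture (edgeR adjusted p = 0.0006), 3.43 ± 0.52 in BM against culture (adjusted p = 0.00011) and −0.59 ± 0.43 in lung against BM (adjusted p = 0.34). Emcn, the sialomucin endomucin of capillaries and veins, had 21, 4 and 4 reads in lung, 2, 1 and 0 in BM and 0 in culture.

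Egfl7, which encodes a secreted angiogenic factor and hosts the microRNA gene Mir126a, was at the same order of level everywhere. It was at 111, 117 and 131 CPM in lung, 120, 143 and 118 CPM in BM and 110, 107 and 107 CPM in culture. It passed in no comparison (log2 change −0.06 ± 0.09 in lung against BM, edgeR adjusted p = 0.66, and 0.17 ± 0.09 in BM against culture, adjusted p = 0.13). Egfl7 overlaps Agpat2 on the other strand. Of its 3 RefSeq promoters, the one that holds a GATA match (AGATAA or TGATAA on either strand, found in 18.6% of all 32851 promoters) is shown with that match in capitals, since GATA factors act in blood progenitors. Among markers with a promoter entry, 1 of 5 genes expressed in culture held a GATA match (Egfl7). So did 2 of 9 of the middle kind (Tek and Cldn18) and 1 of 8 seen only in lung (Emcn). The match thus did not set apart the markers expressed in culture. The Egfl7 stretch shown covers the 250 bases before the start at chr2:26583615-26583864 (GRCm38.p6, plus strand).
Egfl7: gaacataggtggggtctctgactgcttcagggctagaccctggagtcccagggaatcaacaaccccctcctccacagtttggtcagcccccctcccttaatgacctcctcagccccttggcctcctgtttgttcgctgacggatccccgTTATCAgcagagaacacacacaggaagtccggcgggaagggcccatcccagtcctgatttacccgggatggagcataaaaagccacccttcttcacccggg

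Stromal markers were of all 3 kinds. Dcn, the gene of the matrix proteoglycan decorin, was expressed in culture, at 51.8, 54.1 and 29.5 CPM in lung, 41.7, 52.2 and 36.3 CPM in BM and 28.0, 30.1 and 32.0 CPM in culture. Lung replicate 3 lay within the culture range. It was higher in lung than in culture (log2 change 0.54 ± 0.21, edgeR adjusted p = 0.045), a call lost without lung replicate 1 or 2, BM replicate 1 or any culture library (adjusted p up to 0.18). Every BM library was also above every culture library, but BM against culture did not pass (0.47 ± 0.21, adjusted p = 0.07) except in 8 of 17 alternatives, DESeq2 and leaving out BM replicate 3 or lung replicate 3 among them. Pdgfra, a platelet-derived growth factor receptor of fibroblasts, had 43, 9 and 9 reads in lung and 0 in every other library, which puts lung at least 21.1-fold above BM.

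Pdgfrb, the corresponding receptor of pericytes, did not share that pattern. It was at 2.65, 1.20 and 1.16 CPM in lung, 1.57, 1.75 and 0.49 CPM in BM and 0.109, 0.0301 and 0.137 CPM in culture. Lung and BM overlapped and both were above culture (log2 change 4.13 ± 0.66 in lung, edgeR adjusted p = 0.00017, and 3.70 ± 0.67 in BM, adjusted p = 0.00037). Lung against BM was 0.43 ± 0.48 (adjusted p = 0.55). Inmt, an amine methyltransferase abundant in lung, had 97, 32 and 39 reads in lung, 0 in BM and 2, 0 and 0 in culture. Mgp, a secreted inhibitor of calcification, had 33, 4 and 7 reads in lung, 4, 2 and 2 in BM and 0, 0 and 1 in culture.

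**Figure D4:**
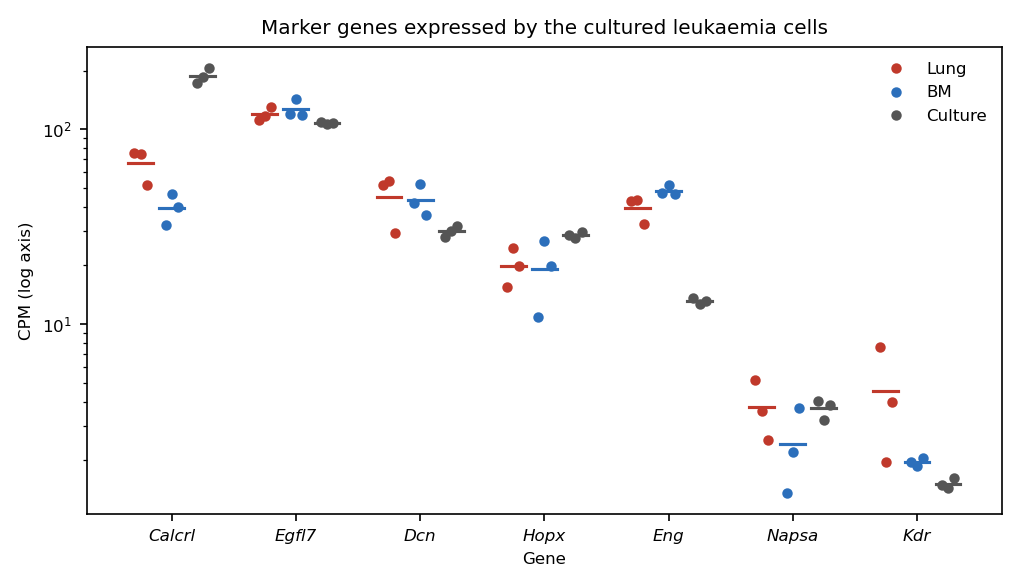
Level (CPM, log axis) of the 7 markers that the cultured cells express, by library (points) and group mean (bars), with lung, BM and culture from left to right for each gene. Calcrl is highest in culture (173 to 206 CPM), Eng lowest there (12.6 to 13.6 CPM), and Egfl7 spans 107 to 143 CPM over all 9 libraries.

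Per kilobase of exon, mean lung levels were 36.9 CPM for Scgb1a1, 33.4 for Egfl7, 17.8 for Sftpc, 13.8 for Calcrl, 13.2 for Hopx, 9.75 for Eng and 7.73 for Dcn. The Sftpc mean rests on lung replicate 1, at 35.9 CPM against 8.41 and 10.8 CPM in lung replicates 2 and 3, so its place among these genes is not fixed. The Scgb1a1 mean, 17.6 ± 15.4 CPM before scaling by length (SD, n = 3), rests on lung replicates 1 and 2.

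Lung replicate 1 carried the most RNA of these markers. It was the highest of the lung libraries in 28 of the 30 markers that culture did not express and that had at least 10 lung reads, the exceptions being Krt18 and Sox17, which were highest in lung replicate 2. Over all 17831 genes with at least 10 lung reads, it was highest in 34.5%, and in 41.4% of the 6589 of them that were below 1 CPM in some culture library. The 13 markers seen only in lung summed to 62.3, 35.6 and 9.07 CPM in lung replicates 1 to 3 (35.7 ± 26.6, mean and SD, n = 3). Without Scgb1a1, which had 1096, 720 and 2 of those reads, the mean was 18.1 CPM. Their sum was 0.177 to 0.286 CPM in BM and 0.103 to 0.182 CPM in culture. The 5 endothelial genes among them gave 19.4, 6.22 and 5.53 CPM in lung replicates 1 to 3, and the 2 stromal genes 3.67, 1.36 and 1.51 CPM.

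Further genes of the same tissues, taken from lists of 81 genes, divided in the same 3 ways: 21 were expressed in culture, 17 were seen only in lung and 43 met neither rule. Of the further endothelial genes, 11 of the 17 tested were higher in lung than in BM and 0 lower, beside 14.2% and 11.1% of all tested genes. As with the markers, genes in these lists that passed the filter through their lung reads alone had to differ. Foxf1, a transcription factor of lung mesenchyme and capillaries, was at 7.63, 2.13 and 2.23 CPM in lung and had 2 reads in BM and 1 in culture. Lyve1, a hyaluronan receptor of lymphatic endothelium and some macrophages, was at 7.42, 1.60 and 0.816 CPM in lung, against 0 to 0.155 CPM in BM. The cultured cells expressed the abundant ones: Icam2, a leukocyte ligand, was at 159 ± 24 CPM in lung, 154 ± 21.4 CPM in BM and 117 ± 2.95 CPM in culture (SD, n = 3 each). Plvap, a diaphragm protein of capillary pores, averaged 108 CPM in lung, 104 CPM in BM and 62.5 CPM in culture. Prx, the gene of periaxin, was at 14.0, 7.68 and 5.75 CPM in lung, 3.87, 2.89 and 2.58 CPM in BM and 4.26, 5.12 and 4.70 CPM in culture (log2 change 1.58 ± 0.29 in lung against BM, edgeR adjusted p = 0.003).

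Among further alveolar genes, 5 of 10 tested were higher in lung than in BM and 0 lower, beside 14.2% and 11.1% of all tested genes. Cav1, the caveolae gene of type I cells and endothelium, had 457, 87 and 103 reads in lung, 1, 1 and 0 in BM and 0 in culture. Emp2, a membrane protein of alveolar type I cells, was highest in culture: it was at 4.30, 1.83 and 1.63 CPM in lung, 0.148, 0.0954 and 0.232 CPM in BM and 13.3, 14.3 and 13.6 CPM in culture. The type II lipid and transcription genes were expressed by the cultured cells. Fasn, fatty acid synthase, averaged 439 CPM in lung, 310 CPM in BM and 349 CPM in culture. Etv5, an ETS transcription factor, averaged 82.1 CPM in lung, 84.0 CPM in BM and 182 CPM in culture. Slc39a8, a metal ion importer, averaged 83.8, 60.9 and 141 CPM in lung, BM and culture.

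Only 2 of 11 further airway genes and 2 of 10 further general epithelial genes could be tested. Tppp3, a microtubule protein of ciliated cells, passed the filter through its lung reads alone and so had to be higher in lung than in BM (log2 change 5.40 ± 0.36, edgeR adjusted p = 3.3e-07). It was at 6.69, 8.91 and 7.69 CPM in lung, including the library that lacked Scgb1a1, and at 0.177, 0.191 and 0.181 CPM in BM. Aldh1a1, an aldehyde dehydrogenase, fell in lung against BM (−0.58 ± 0.17, adjusted p = 0.029), with means of 34.8 CPM in lung and 52.7 CPM in BM. The protease inhibitor gene Spint2 averaged 143 CPM in lung, 144 CPM in BM and 216 CPM in culture, and the claudin Cldn3 averaged 14.7 CPM in lung, 18.0 CPM in BM and 3.25 CPM in culture.

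Of further fibroblast and pericyte genes, 4 of 11 tested were higher in lung than in BM and 0 lower, beside 14.2% and 11.1% of all tested genes. Notch3, a receptor of pericytes and smooth muscle, was at 2.26, 1.70 and 2.07 CPM in lung, 0.207, 0.127 and 0.361 CPM in BM and 1.02, 1.08 and 0.994 CPM in culture (log2 change 3.09 ± 0.36 in lung against BM, edgeR adjusted p = 9e-05). Acta2, smooth muscle actin, averaged 2.10 CPM in lung, 0.37 CPM in BM and 0.825 CPM in culture. The collagen genes differed in level. Col1a2 averaged 180 CPM in lung, 134 CPM in BM and 211 CPM in culture, whereas Col1a1 averaged 0.482 CPM in lung, 0.0904 CPM in BM and 0.338 CPM in culture. Npnt, the gene of nephronectin, averaged 21.6 CPM in lung, 18.8 CPM in BM and 42.6 CPM in culture. Of 4 mesothelial genes 1 was tested, Lrrn4, at 0.341, 1.33 and 0.565 CPM in lung and 0.384, 1.34 and 0.516 CPM in BM, while Wt1 had 3 reads in lung and 6 in BM.

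Markers of other blood and immune cells differed between groups in some lists, while the sums of other lists overlapped. The 7 neutrophil genes summed to 74.3, 10.1 and 10.1 CPM in lung replicates 1 to 3, against 305, 553 and 1957 CPM in BM and 0.994 to 2.20 CPM in culture. All 7 were lower in lung than in BM, beside 11.1% of all tested genes, Ngp among them at 20.0, 2.49 and 2.61 CPM in lung and 89.4, 148 and 523 CPM in BM. In this list and those that follow, a gene that passed the filter only through groups where it was high had to differ. These counts of calls support nothing further. By the sums, the lung library with the most neutrophil RNA was also the one with the most RNA of the lung markers. The 10 T and NK cell genes summed to 10.4 to 13.9 CPM in lung, 8.83 to 12.6 CPM in BM and 10.2 to 10.6 CPM in culture, mostly Lck, which the cultured cells express, and 5 to 7 of the 10 were at 0 in culture. Below that sum, 3 of the 5 tested were higher in lung than in BM (edgeR), beside 14.2% of all tested genes: the granzyme gene Gzma (58 reads in lung, 5 in BM; adjusted p = 0.0056), the T cell receptor gene Trac (46 reads in lung, 8 in BM; adjusted p = 0.015) and the CD3 gene Cd3g (49 reads in lung, 18 in BM; adjusted p = 0.04). The limit on genes that passed the filter through lung reads alone holds for these calls as well. The 7 alveolar macrophage genes summed to 5.28 to 21.2 CPM in lung, 29.2 to 165 CPM in BM and 0.218 to 0.343 CPM in culture, where 4 or 5 of them were at 0, and Chil3 was the most abundant. Of the 3 tested, only Chil3 was lower in lung than in BM (log2 change −3.32 ± 0.84, edgeR adjusted p = 0.032). Ear2 (1.35 ± 0.61, adjusted p = 0.12) and Siglecf (−0.08 ± 0.52, adjusted p = 0.92) did not pass, so the sum does not speak for the whole list. The 8 tissue macrophage genes summed to 9.74 to 13.8 CPM in lung, 20.6 to 22.1 CPM in BM and 9.98 to 10.5 CPM in culture, with Axl at 4.11 to 6.14 CPM in lung. Of 7 tested, 6 were higher in lung than in culture and 1, Axl, was lower, beside 27.9% and 27.0% of all tested genes. In lung against BM 4 of the 7 were lower, beside 11.1% of all tested genes. C1qa, a complement gene of macrophages, had 40 reads in lung, 150 in BM and 0 in culture, and Adgre1, the F4/80 gene, had 100 in lung, 82 in BM and 2 in culture. The B cell sum ran from 14.1 to 88.2 CPM in lung, 8.21 to 91.8 CPM in BM and 304 to 314 CPM in culture, nearly all of it Ighm. In every culture library 4 of the 6 B cell genes were at 0. Median log2 changes of the 5 tested were 6.95 in lung and 7.61 in BM against culture. Of these, 1 was called higher in lung against culture, beside 27.9% of all tested genes. In BM against culture 2 were higher and 1 lower, beside 30.7% and 29.8%. The sum therefore does not speak for the whole list. The platelet list (Itga2b foremost) summed to 27.1 to 39.9 CPM in lung and 19.7 to 28.5 CPM in BM. The erythroid list (Klf1 foremost) summed to 409 to 524 CPM in lung and 402 to 468 CPM in BM. Culture sums were 22.59 to 30.45 CPM for the platelet list and 757 to 775 CPM for the erythroid list. The erythroid sum was thus highest in culture. The part of other blood and immune cells in the differences between lung markers was not tested.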

How the data were processed

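Libraries came from low-input RNA with the SMART-seq v4 and ThruPLEX kits, per the labels. The deposited files hold raw read counts by gene symbol, made by the authors with bcl2fastq and STAR on mm10, per the submitters' processing notes. Neither tool versions nor the counting tool and annotation are stated (not given in the sources used here). Counts were scaled to CPM on library totals for levels. Differences were tested on the deposited counts with edgeR 4.0.16 in R 4.3.3 (filterByExpr, TMM, robust quasi-likelihood fit of all 9 libraries), with DESeq2 1.42.0 as an alternative. SE is the size of the log2 change over the square root of F. Where a group had few reads, ratios carry exact binomial intervals at the 95% level, which cover counting error only, and a group with 0 reads was set at 3 reads. Coordinates, exon lengths and overlaps come from GENCODE M21, and promoters from RefSeq.

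The markers and all lists were chosen with earlier results of these data known. All 37 markers are named, and of each further list the 2 most abundant genes and up to 3 more that passed in lung against BM. Of each other cell type the most abundant gene in lung is named. Gzma, Trac, Cd3g, C1qa, Adgre1, Ear2 and Siglecf were added after their values were seen. Scaling, filters, the set of libraries, a replicate block and leaving out each library were varied. The pipeline was tested on simulated data.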

Additional observations from a re-analysis of the deposited data

Results flagged for a closer look

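For 3 markers every lung library lay above every culture library and every BM library below every culture library in CPM. For Sftpc and Sftpa1 the order of BM and culture rests on single reads, and for Sftpc also on library totals. That the tissues lie on opposite sides of culture was not tested. Sftpc had 1967 reads in lung, 2 in BM and 7 in culture, a ratio of lung to BM of 1023. Sftpa1 had 635 reads in lung, 0 in BM and 4 in culture, and was at least 220-fold higher in lung than in BM. The BM against culture contrasts of Sftpc and Sftpa1 did not pass in edgeR (adjusted p = 0.46 and 0.15), and that of Sftpa1 passed without lung replicate 1 (adjusted p = 0.022) or without a filter on low counts. Tek had 244 reads in lung, 2 in BM and 23 in culture, a ratio of lung to BM of 127, and its BM against culture contrast passed in edgeR (adjusted p = 0.023).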

How the results depend on the processing

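Of 1146 values of single tested markers under alternatives, 1086 kept their side of the threshold, 31 lost a call and 29 gained one. With a call in either run, 0 reversed direction. Changes of sign between uncalled values were not counted, as for Hopx in lung against BM (−0.19 to 0.39 over the alternatives). Without a filter on low counts, all 37 markers were tested among 30802 genes with a read. Those called higher numbered 25 in lung against BM, beside 2708 of all genes, and 31 in lung against culture, beside 5047. Those called lower numbered 2 in lung against culture, beside 4069 of all genes, where Hopx was added. They numbered 5 in BM against culture, beside 4565 of all genes, where Hopx, Napsa and Sftpa1 were added. The main fit had already tested these added markers. With the replicate block, 2 were lower in lung against culture and 4 in BM against culture, beside 4187 and 4620 of all genes. The block brought calls in BM against culture for Sftpa1, Hopx and Dcn, and in lung against culture for Hopx. With only the 6 libraries of the pair these counts were 2 and 1, beside 4285 and 4409 of all genes. DESeq2 gave 2 in lung against culture, beside 4000. The filter of 1 CPM in 3 libraries gave 1 in BM against culture, beside 4011. The cause of these changes in calls was not tested. Leaving out 1 library gave 13 to 19 higher and 0 lower in lung against BM. Over all genes it gave 1430 to 2676 higher and 928 to 2084 lower there. In lung against culture it gave 17 to 24 higher and 1 to 2 lower, beside 3469 to 4542 and 3673 to 4395. In BM against culture it gave 5 to 6 higher and 1 to 3 lower, beside 3916 to 4713 and 4046 to 4633. It gave 7 markers expressed in culture, 10 to 16 seen only in lung, and a summed level of that class of 22.4 to 49.0 CPM, 22.4 without lung replicate 1. Allowing 0 reads in BM and culture left 1 marker seen only in lung, Pdgfra. Same-numbered lung and BM libraries had residual correlations of 0.030, 0.268 and 0.087, and differently numbered ones −0.241 to 0.139. The numbers were not treated as pairs in the main fit, but these correlations over all genes cannot exclude pairing. For replicates 1 to 3 the B cell sum kept its order across tissues (lung 64.9, 14.1 and 88.2 CPM, BM 50.7, 8.2 and 91.8 CPM). The neutrophil sum did not, being highest in lung replicate 1 and in BM replicate 3. Whether same-numbered libraries share a mouse was not tested. Genes at or under 3 reads in a group are limited by depth.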

Other observations

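Outside the marker lists, other genes met the same rule for reads in lung alone, and those named here were chosen after their values were seen. Epas1, the hypoxia-inducible transcription factor HIF-2 alpha of endothelium and type II cells, had 514, 167 and 58 reads in lung replicates 1 to 3 and 0 in every BM and culture library. Slco2a1, a prostaglandin transporter, had 274, 88 and 48 reads in lung and 1 in BM. Timp3, an inhibitor of metalloproteinases, had 248, 60 and 54 reads in lung, 3 in BM and 3 in culture. Lung replicate 1 had the most reads of all 3 genes.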
